A study of Rattus norvegicus with 35 samples.

Results

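Indole-3-carbinol (I3C) added to the diet of rat dams that received bisphenol A (BPA) at 250 µg/kg/day was compared with the same BPA dose alone, in the mammary gland of their weaned daughters. The comparison rested on 10 of the 35 arrays of the series: the 5 arrays titled for BPA250 with I3C (called BPA250+I3C below) and the 5 titled for BPA250 alone, across all probes besides the array's controls. All animals were female Sprague-Dawley rats of postnatal day 21, and each array held RNA of the abdominal left gland of 1 animal, the animals of a group coming from different litters. Dams of both groups were given BPA by gavage from gestational day 10 to 21. Dams of the BPA250+I3C group also ate chow with 2000 mg/kg I3C, about 45.0 mg/kg/day. For reference, 5 arrays came from animals titled as negative controls (BPA at 0 µg/kg/day). Another 5 came from BPA at 25 µg/kg/day (BPA25) and 5 from that dose with the same I3C chow (BPA25+I3C). The remaining 10 arrays, 5 at each BPA dose with chow holding 250 mg/kg of the soy isoflavone genistein, entered the probe filter and the estimate of the spread but are not described. No group received I3C without BPA, so the comparison asks what the diet altered on a BPA background and not what the diet does alone.

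I3C is released when cruciferous vegetables such as broccoli are chewed or cut. In the acid of the stomach it condenses to products, among them diindolylmethane, that bind the aryl hydrocarbon receptor (Ahr). The ligand-bound receptor pairs with Arnt, binds DNA at sites with the core letters GCGTG and switches on xenobiotic-metabolising genes such as Cyp1a1 and Cyp1b1, whose products also hydroxylate oestrogens. BPA, a building block of polycarbonate plastics, is a weak ligand of oestrogen receptors. The weanling gland is a small epithelial tree in a large fat pad that also holds vessels, a lymph node and, at its margin, muscle, so each level below is an average over cell types. Fewer cells of a type and less RNA per cell cannot be told apart in such samples.

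4 upstream sequences are shown. Npy and Ucp1 are the 2 of the leading genes with higher values whose listed promoter held GCGTG. Leading genes such as Exosc2 and Alas2 had larger differences than Npy. Rsad2 stands for the interferon response and Tiparp for the Ahr. Each sequence is taken from RefSeq (build GRCr8), is written 5′ to 3′ on the gene's strand and lies outside the annotated gene. Capitals mark the Ahr core GCGTG or its complement CACGC in Npy, Ucp1 and Tiparp, and the interferon-stimulated response element, searched as 2 copies of GAAA with any 2 bases between them and read on the opposite strand, in Rsad2.
Npy, chr4:80211861-80212110 (+): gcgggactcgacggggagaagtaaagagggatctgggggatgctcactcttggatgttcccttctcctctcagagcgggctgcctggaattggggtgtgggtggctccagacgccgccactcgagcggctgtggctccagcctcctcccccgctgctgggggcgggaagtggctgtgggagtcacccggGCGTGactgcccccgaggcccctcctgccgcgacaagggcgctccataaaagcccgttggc
Ucp1, chr19:41721422-41721671 (-): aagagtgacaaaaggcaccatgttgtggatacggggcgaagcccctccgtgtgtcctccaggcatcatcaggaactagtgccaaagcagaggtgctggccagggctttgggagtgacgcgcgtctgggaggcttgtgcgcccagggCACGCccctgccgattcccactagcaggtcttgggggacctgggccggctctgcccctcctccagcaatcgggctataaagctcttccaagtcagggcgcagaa
Rsad2, chr6:48788246-48788370 (-): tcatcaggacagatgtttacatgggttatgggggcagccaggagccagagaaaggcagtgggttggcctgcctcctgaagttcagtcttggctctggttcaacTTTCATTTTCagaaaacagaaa
Tiparp, chr2:152063519-152063768 (+): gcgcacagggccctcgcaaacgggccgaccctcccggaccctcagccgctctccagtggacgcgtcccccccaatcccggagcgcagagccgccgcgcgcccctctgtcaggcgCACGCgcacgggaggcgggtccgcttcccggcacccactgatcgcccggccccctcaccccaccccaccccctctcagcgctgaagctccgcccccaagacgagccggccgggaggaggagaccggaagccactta
The marked letters end 57 bases before the listed transcript start of Npy, 100 before that of Ucp1, 138 before that of Rsad2 and 132 before that of Tiparp. Over the 250 bases before the start, searched on both strands, GCGTG occurred in 25.9% and the GAAA pair in 3.4% of 33469 listed promoters. Among the 12 leading genes with higher values in BPA250+I3C, 11 had a listed promoter and 2 of these (Npy and Ucp1) held GCGTG. Among the 12 with lower values, 10 were listed and 3 held it. Of 5 measured Ahr targets 4 were listed and 3 held GCGTG, and of 16 measured interferon-stimulated genes 10 were listed and 7 held the GAAA pair. A match describes letters and is no evidence of binding in these animals.

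The arrays differed in how many probes gave signal. The BPA250 array of replicate 2 stood apart, with 94.8% of probes well above background. The arrays of replicate 3 had 72.2% (BPA250) and 68.6% (BPA250+I3C), and the other 7 arrays 39.0% to 47.7%. The array of BPA250 replicate 2 came from slide 3, on which no BPA250+I3C array was placed, and its log2 levels correlated with those of the other 9 arrays at 0.774 to 0.884 (Pearson, across genes), against 0.920 to 0.972 among those 9. Many results are therefore also given without it. Values given only with it can shift when it is left out. The log2 fold change of Ccne1, for example, went from 1.06 to 0.74 and that of Angpt4 from -1.87 to -1.52. Of the 10 slides 1 held both groups (replicate 1 of each), while 4 of the 5 scan days held both, so differences were also taken within each of those 4 days. A day held as few as 1 array of each group. For genes picked by p from these same arrays, equal signs across days are no separate support. Over the 10 arrays, taken alone, scan day accounted for 54.1% of the variance, replicate number for 48.9% and group for 14.5%. These shares are not adjusted for the number of levels.

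No gene differed between BPA250+I3C and BPA250 after adjustment for the 16157 genes tested (0% called, limma with Benjamini-Hochberg adjustment at 0.05, smallest adjusted p = 0.606). At an unadjusted p under 0.05, 483 genes had higher values in BPA250+I3C (2.99% of genes) and 216 lower (1.34%). The median log2 fold change of all genes was 0.24, and 69.8% of genes lay above 0. This overall offset depended on 1 array and on the scaling: it was 0.03 without slide 3, with 55.1% of genes above 0, and -0.16 when each array was scaled to the probes seen above background on every array, with 32.7% above 0. Groups of genes are therefore described below by their distance from the median of all genes. In 136 genes (0.842%) all 5 BPA250+I3C arrays lay above all 5 BPA250 arrays, and in 42 genes (0.26%) all 5 lay below. The median standard error of a log2 fold change was 0.41, which limits what 5 animals against 5 could show. Every difference between these groups named below failed the adjustment, with adjusted p from 0.606 to 1, and is given as a value with its standard error.

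The receptors and classical targets of I3C products gave little signal. Ahr was above background on 0 of 5 BPA250+I3C and 1 of 5 BPA250 arrays, its partner Arnt on 1 and 2, Cyp1a1 on 2 and 3, Cyp1a2 on 0 and 1 and the quinone reductase Nqo1 on 2 and 3. No difference in them was detectable. Counts for BPA250, here and below, include the slide 3 array, with 94.8% of probes above background. They are therefore not directly comparable with those of BPA250+I3C. The oestrogen receptors Esr1 (1 and 2 arrays) and Esr2 (0 and 1), the progesterone receptor Pgr (2 and 2) and the membrane oestrogen receptor Gper1 (0 and 3) were as dim, and no probe was matched to the Ahr repressor Ahrr. Measurable Ahr targets lay close to the other genes. Cyp1b1, an oestrogen-hydroxylating enzyme, was above background on all 10 arrays, at log2 levels (relative to the array's 75th percentile, as are all levels below) of -0.87, -0.70, 0.61, -0.22 and 0.66 in BPA250+I3C replicates 1 to 5 and of -0.06, 1.13, 0.49, -0.76 and -0.55 in BPA250. The groups overlapped fully, and the log2 fold change was -0.16 ± 0.44 (SE), with a sign that turned without slide 3 (0.11). A second Cyp1b1 probe stood at 0.01.

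Tiparp, an Ahr-induced ADP-ribosyltransferase that dampens the receptor, stood at 1.31, 1.16, 0.99, 1.00 and 1.16 in BPA250+I3C and at 1.07, -0.38, 1.01, 0.92 and 1.33 in BPA250. Only the slide 3 array was away from the rest. Its log2 fold change of 0.34 ± 0.34 became 0.04 without that slide. Over the 5 measured Ahr targets, which also include Aldh3a1, Ugt1a6 (whose probe may share sequence with other Ugt1a transcripts) and Nfe2l2, values ran from -0.16 to 0.34 and their median stood at -0.03 relative to that of all genes. None of the 5 reached an unadjusted p under 0.05. The 11 measured oestrogen-responsive genes ran from -0.92 to 0.79, also with none under 0.05, and 4 of 11 lay above the median of all genes.

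The genes with the smallest p on the higher side were led by Npy, the gene of neuropeptide Y, a sympathetic transmitter that also acts on fat and on vessels. Npy levels were 1.84, 0.05, 0.21, -0.02 and 3.02 in BPA250+I3C replicates 1 to 5 and -0.33, -1.10, -1.69, -1.13 and -0.89 in BPA250. All 5 animals of the I3C group lay above all 5 of the other, replicates 1 and 5 far above. The log2 fold change was 2.05 ± 0.43, or 4.13-fold (unadjusted p = 0.0000375, adjusted p = 0.606, limma), and it was 2.03 without slide 3, 1.55 without BPA250+I3C replicate 5 and positive on 4 of 4 scan days (1.11 to 3.91). Controls stood at -0.59 ± 0.24 (SD, n = 5), between the means of both groups. Npy and Alas2 were the only genes to pass in this comparison under any of the alternatives tried, with slide as a random block (adjusted p = 0.022 for both, at 2.22 and 2.44).

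**Figure D1:**
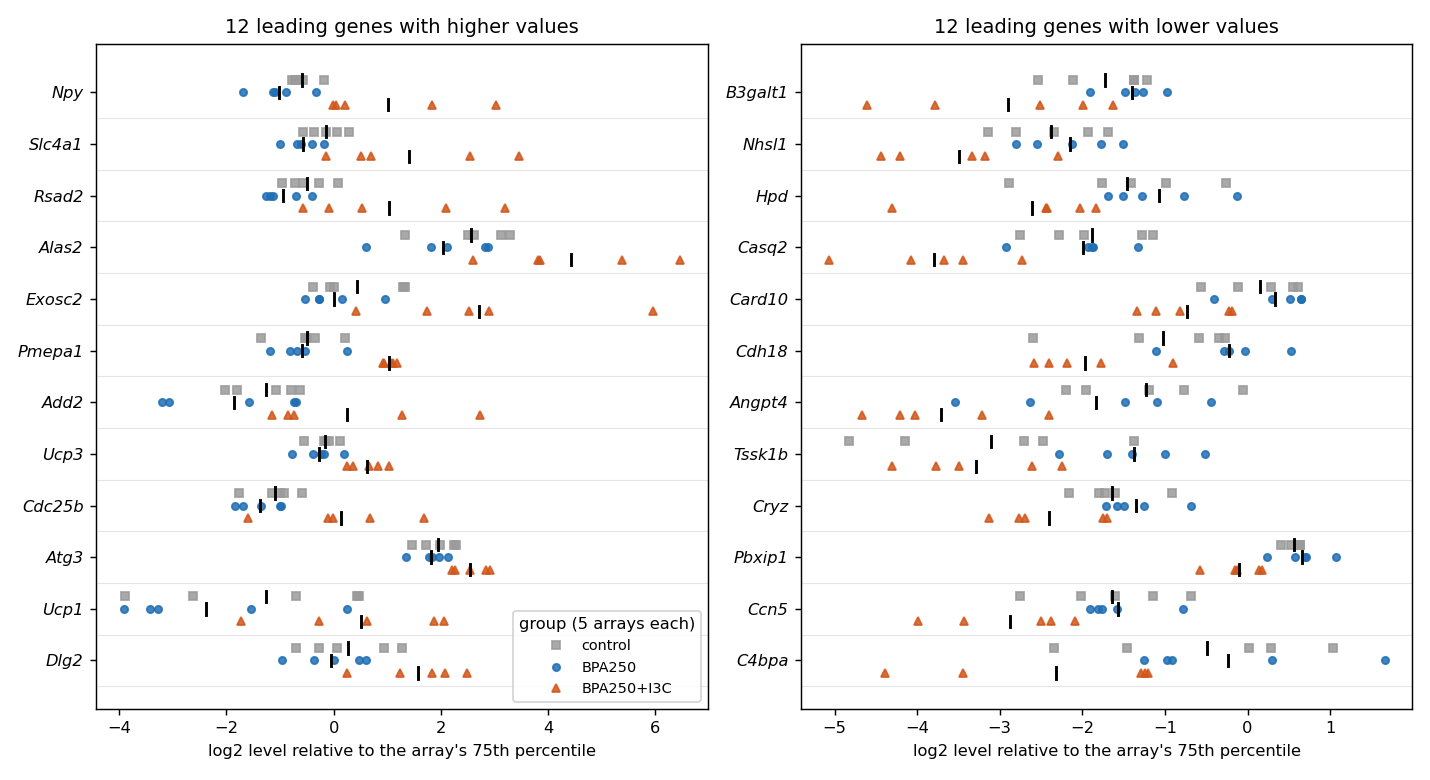
Log2 level relative to the array's 75th percentile (horizontal axis) of the 24 leading genes, 12 with higher and 12 with lower values in BPA250+I3C, with a point for each of the 5 arrays of control, BPA250 and BPA250+I3C and a bar at each group's mean. All 5 Npy and Pmepa1 points of BPA250+I3C lie above all 5 of BPA250, and the 5 Pmepa1 points of BPA250+I3C lie within 0.92 to 1.18.

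Red cell genes made up the group farthest above the median of all genes. All 8 measured erythroid markers had higher values in BPA250+I3C, from 0.32 to 2.37. Their median of 1.46 lay 1.22 above that of all genes (1.19 without slide 3, 0.74 to 1.52 over 25 alternatives). Of the 8, 4 reached an unadjusted p under 0.05 against 2.99% of all genes. Alas2, the first enzyme of haem synthesis in red cell precursors, stood at 5.37, 2.59, 3.85, 3.82 and 6.46 in BPA250+I3C and at 2.83, 0.60, 2.11, 1.82 and 2.88 in BPA250. The groups overlapped only through replicate 2 of BPA250+I3C. Its log2 fold change was 2.37 ± 0.62 (5.18-fold), 2.01 without slide 3 and 1.86 without BPA250+I3C replicate 5. Slc4a1, the anion exchanger of the red cell membrane, stood at 2.55, -0.14, 0.69, 0.51 and 3.46 against -0.61, -0.41, -0.68, -1.01 and -0.18. These groups did not overlap, and the fold change was 1.99 ± 0.47, or 1.48 without BPA250+I3C replicate 5.

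Hbb, a beta globin whose probe may also bind near-identical globin copies, stood at 6.83, 5.55, 5.81, 6.36 and 8.21 in BPA250+I3C and at 6.18, 3.27, 4.67, 5.32 and 6.08 in BPA250 (1.45 ± 0.62, and 0.99 without slide 3). Replicates 1 and 5 were the highest of the I3C group. Among the other markers, Ahsp, a chaperone of alpha globin, differed by 1.47 ± 0.73, Klf1, the erythroid transcription factor, by 0.87 ± 0.59, Tfrc, the transferrin receptor, by 0.82 ± 0.63 and Hbb-b1 by 0.32 ± 0.64. The erythroid list mean was 4.25, 2.18, 2.77, 3.02 and 5.19 in BPA250+I3C, 2.63, 1.34, 1.83, 1.86 and 2.85 in BPA250 and 1.76 to 2.97 in controls. On every one of the 4 scan days the list's median difference lay above that of all genes, by day 1.26, 2.79, 0.27 and 1.27 against -0.02, 0.09, -0.02 and 0.48.

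In some genes outside that list the same 2 animals were highest. Exosc2, a subunit of the RNA exosome, stood at 2.90, 0.42, 1.74, 2.52 and 5.95 in BPA250+I3C and at 0.15, -0.54, -0.27, -0.28 and 0.96 in BPA250. The spread within the I3C group spanned over 5 log2 units, with replicate 5 highest, and the fold change of 2.70 ± 0.72 became 1.89 without that animal. Add2, beta adducin of the red cell and neuronal membrane skeleton, differed by 2.11 ± 0.58 and Cdc25b, a phosphatase that starts mitosis, by 1.50 ± 0.42, again with BPA250+I3C replicates 1 and 5 highest (1.27 and 2.72 for Add2, 0.68 and 1.69 for Cdc25b). Add2 was above background on 3 of 5 BPA250 arrays. The part that red cells or their precursors in the tissue had in these values was not tested.

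**Figure D2:**
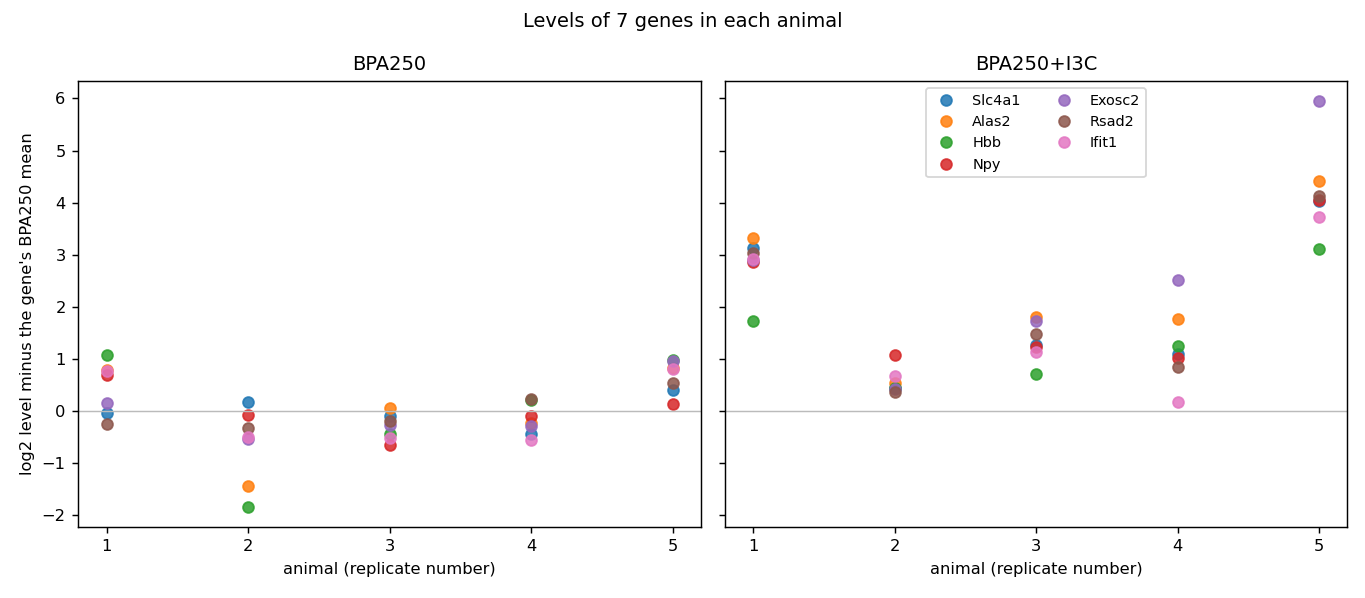
Log2 level minus the gene's mean over the 5 BPA250 arrays (vertical axis) of 7 genes in each animal, with replicates 1 to 5 along the horizontal axis, BPA250 on the left and BPA250+I3C on the right. All BPA250+I3C points lie above 0, and replicates 1 and 5 are the highest of that group for each of the 7 genes.

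Of the interferon-stimulated genes, 2 stood out from their list. Rsad2, the antiviral enzyme viperin, stood at 2.10, -0.57, 0.53, -0.09 and 3.19 in BPA250+I3C and at -1.18, -1.27, -1.14, -0.70 and -0.41 in BPA250. The groups overlapped in 1 animal, replicate 2 of BPA250+I3C. Its fold change was 1.97 ± 0.49, and 1.89 without slide 3. Ifit1, which binds viral RNA, stood at 1.99, -0.25, 0.22, -0.74 and 2.80 against -0.15, -1.42, -1.44, -1.48 and -0.12 (1.72 ± 0.50). In both genes replicates 1 and 5 were again highest. Without BPA250+I3C replicate 5 the fold changes were 1.43 for Rsad2 and 1.22 for Ifit1. Irf9, part of the factor that binds the response element shown for Rsad2, stood at -0.58 ± 0.27, or -0.33 without BPA250 replicate 5, the highest animal at 1.09. On the 4 scan days it differed by -0.08, -1.90, -0.26 and -0.13. Over the 16 measured members the median lay 0.18 above that of all genes and 0.04 without slide 3, and 12 of 16 lay above it, so the list as a whole stood close to the other genes.

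Pmepa1 differed from the genes above in that the I3C animals were alike. This membrane protein limits signalling by transforming growth factor beta and androgens. Its levels were 1.18, 1.06, 0.93, 1.11 and 0.92 in BPA250+I3C and -0.53, -1.19, 0.24, -0.81 and -0.69 in BPA250. The groups did not overlap, the fold change was 1.64 ± 0.45 (3.11-fold), and it lay between 1.41 and 1.93 on the 4 scan days. Controls stood at -0.50 ± 0.57, near BPA250. The autophagy enzyme Atg3 (0.74 ± 0.21) and Ucp3, a mitochondrial carrier of muscle and brown fat (0.90 ± 0.25), also had all 5 I3C animals above all 5 others. Dlg2, a synaptic scaffold protein, differed by 1.63 ± 0.47. All 4 were higher on 4 of 4 scan days, which their choice from these same arrays favoured.

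Ucp1, which lets brown fat mitochondria make heat, had the largest difference of the leading genes and a wide spread. It stood at 2.06, 0.63, -0.27, -1.73 and 1.88 in BPA250+I3C and at -3.91, -3.42, -3.28, 0.25 and -1.54 in BPA250. Replicate 4 went the other way, being the lowest of one group and the highest of the other. The fold change was 2.89 ± 0.84 overall and -1.98 on the scan day that held replicate 4 of both groups. Of the 4 other measured brown fat markers, Dio2, the deiodinase that activates thyroid hormone, stood at -0.19 ± 0.23, Cidea, a lipid droplet protein, at 0.11 ± 0.33 and Cox8b, a cytochrome oxidase subunit that muscle also makes, at -1.06 ± 1.04. For Cox8b the other probes stood at -0.13 and -0.51, and leaving out BPA250+I3C replicate 4 gave -0.48. Cpt1b, the muscle and brown fat carnitine palmitoyltransferase, had higher values in BPA250+I3C as Ucp1 did, at 1.27 ± 0.48 and at 0.83 without slide 3.

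On the lower side most leading genes were dim. Of the 12, 10 had at least 1 BPA250+I3C array not well above background, where the scanner's value is close to background. Hpd, an enzyme of tyrosine breakdown, stood at -2.44, -4.30, -1.84, -2.43 and -2.03 in BPA250+I3C and at -0.13, -1.69, -1.51, -1.28 and -0.77 in BPA250. The groups did not overlap, the lowest animal being replicate 2 of BPA250+I3C, and the fold change was -1.53 ± 0.45. Pbxip1, which binds PBX homeodomain factors and oestrogen receptors, was above background on all 10 arrays. It stood at -0.13, 0.17, 0.14, -0.15 and -0.57 against 0.24, 1.07, 0.69, 0.57 and 0.71, again without overlap (-0.76 ± 0.25). Card10, a scaffold of NF-kappaB signalling, was also above background on all 10 arrays and differed by -1.08 ± 0.32.

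Ccn5, a matricellular protein also called WISP2, stood below BPA250 in all 5 animals (-1.31 ± 0.43) but was above background on 2 of 5 arrays against 4 of 5. C4bpa, which restrains complement, differed by -2.08 ± 0.69. The cell adhesion gene Cdh18 stood at -1.75 ± 0.52 and the galactosyltransferase B3galt1 at -1.51 ± 0.42. Casq2, a calcium store protein of muscle, stood at -1.81 ± 0.54 and was above background on 1 against 4 arrays. The others were Nhsl1 (-1.34 ± 0.38), Angpt4, an angiopoietin (-1.87 ± 0.57), Tssk1b, a testis kinase (-1.90 ± 0.61), and Cryz, a quinone reductase (-1.06 ± 0.35). All 12 were lower on 4 of 4 scan days, which their choice from these same arrays favoured. With normexp correction and quantile normalization all 12 stayed below 0 at smaller sizes, such as -0.35 for Hpd and -0.17 for Nhsl1.

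Sterol and fat synthesis genes lay above the median of all genes. Of 20 measured genes of cholesterol synthesis 17 did so, and 6 reached an unadjusted p under 0.05 on the higher side, against 2.99% of all genes. Their median lay 0.58 above that of all genes, 0.50 without slide 3 and 0.26 to 0.7 over the alternatives. Fdps, which makes farnesyl diphosphate, stood at 4.34, 5.04, 4.06, 5.62 and 5.32 in BPA250+I3C and at 3.46, 2.78, 3.13, 3.87 and 4.27 in BPA250. Only replicate 5 of BPA250 reached into the I3C range, and the fold change was 1.38 ± 0.42 (1.20 without slide 3). A second Fdps probe stood at 1.59. Cyp51, the lanosterol demethylase, stood at 0.11, 1.33, 0.73, 1.73 and 1.50 against 0.54, -0.14, -0.21, 0.32 and 0.70, with replicate 1 of BPA250+I3C the exception (0.84 ± 0.32). Sqle, the squalene epoxidase, differed by 0.96 ± 0.40 and Sc5d, a late sterol desaturase, by 0.80 ± 0.32. The list's median difference was 0.81, 0.46, 0.33 and 0.92 on the 4 scan days, above that of all genes on each.

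Among 18 measured genes of fatty acid and triglyceride synthesis 14 lay above the median of all genes, and 3 had an unadjusted p under 0.05 on the higher side, against 2.99% of all genes. The list stood 0.36 above all genes, 0.16 without slide 3, and at -0.04 relative to them with slide as a fixed block. Scd, the stearoyl-CoA desaturase, stood at 6.54, 8.04, 7.02, 8.45 and 8.03 against 5.48, 4.69, 5.98, 6.75 and 6.96 (1.64 ± 0.74). Me1, the malic enzyme that supplies NADPH and is also counted among Nrf2 targets, stood at 2.76, 4.90, 2.66, 4.84 and 4.41 against 2.40, 0.73, 2.05, 3.07 and 3.41 (1.58 ± 0.67). In both, replicates 2, 4 and 5 were the higher animals of the I3C group. Without slide 3 Scd differed by 1.32 and Me1 by 1.18. Gpam, the first enzyme of triglyceride synthesis, differed by 0.93 ± 0.45.

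Of 12 measured Nrf2 targets, genes of the response to oxidants and electrophiles, 10 lay above the median of all genes and 4 had an unadjusted p under 0.05 on the higher side, against 2.99% of all genes. Among the 4 were Me1, Prdx1, a peroxiredoxin (1.06 ± 0.46), and Ftl1, ferritin light chain (0.88 ± 0.42). Prdx1 and Ftl1 stood at 0.62 and 0.47 without slide 3. The list stood 0.19 above all genes and 0.28 without that slide. Fat cell and mitochondrial genes depended more on that array. All 21 measured genes of oxidative phosphorylation lay above the median of all genes, by 0.41 at the median but by 0.19 without slide 3 and by 0.08 in the authors' table. Cycs, the gene of cytochrome c, was the 1 member with an unadjusted p under 0.05 (1.09 ± 0.51, and 0.64 without slide 3). White adipocyte markers stood at 0.25 relative to all genes and at -0.01 without slide 3. The hormone leptin (Lep) stood at 0.73 ± 0.32, and at 0.64 without slide 3.

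**Figure D3:**
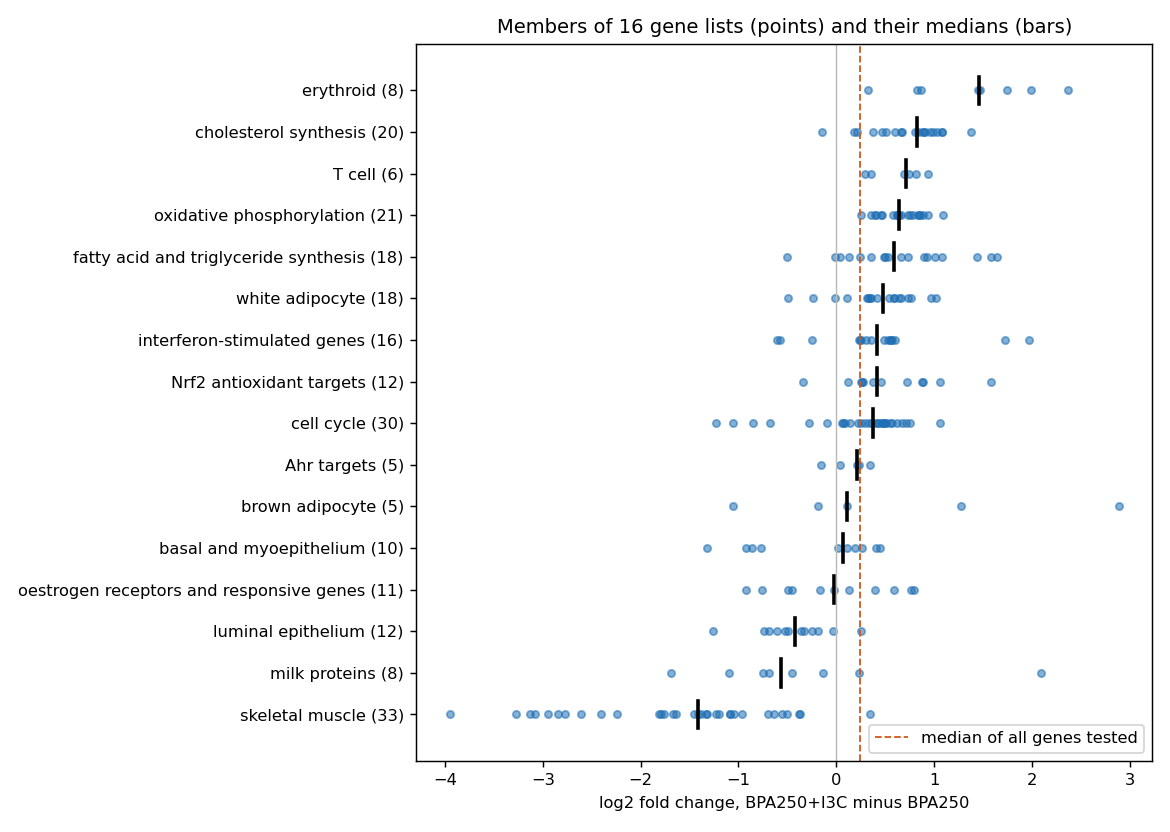
Log2 fold change, BPA250+I3C minus BPA250 (horizontal axis), of each measured member of the described gene lists, 1 list in each line with its median and the median of all genes. The 8 erythroid genes all lie above the 0.24 of all genes and 32 of 33 skeletal muscle genes lie below it.

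Muscle genes were the group farthest below the median of all genes, and varied widely between animals. Of 33 measured, 32 had lower values in BPA250+I3C, 3 of them (Casq2, Ckm and Myoz1) at an unadjusted p under 0.05 against 1.34% of all genes. Their median stood at -1.65 relative to that of all genes, at -1.17 without slide 3 and at -2.36 to -0.72 over the alternatives. Ckm, muscle creatine kinase, stood at 3.22, 1.11, -1.16, -3.58 and -4.96 in BPA250+I3C and at 4.48, 3.80, 3.57, -0.57 and 3.10 in BPA250. The groups overlapped, each spanned over 5 log2 units, and the fold change was -3.95 ± 1.84. The mean level of the list was 0.16, -1.63, -1.74, -3.32 and -3.06 in BPA250+I3C, 0.11, 1.06, 0.64, -2.82 and -0.36 in BPA250 and 1.04 to 3.51 in controls. Replicate 4 was the lowest animal in both groups. The part that muscle taken with the gland had in this difference was not tested.

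Luminal epithelial genes also stood lower. Of 12 measured luminal markers 11 lay below the median of all genes, and the list's median stood at -0.66 relative to it (-0.52 without slide 3, -0.26 with normexp correction). The keratin Krt8 stood at -2.08, -3.69, -0.51, -2.00 and -1.80 in BPA250+I3C and at -1.41, 0.46, -1.28 and -0.78 in BPA250 replicates 1, 2, 4 and 5, the value of replicate 3 being missing. The difference was -1.26 ± 0.61, or -0.86 without slide 3, and the probe was above background on 2 against 5 arrays. Krt19 differed by -0.74 ± 0.54. Basal and myoepithelial markers were spread on both sides. Of the 10 measured, 6 had values above 0 and 3 lay above the median of all genes, and the list's median was 0.07. The 4 with values below 0 were Tp63 (-0.86 ± 0.61) and the keratins Krt15 (-1.32 ± 0.94), Krt5 (-0.92 ± 0.60) and Krt14 (-0.77 ± 0.76). Without BPA250 replicate 1 these keratins stood at -0.86, -0.62 and -0.29, and Krt14 was higher in BPA250+I3C on 1 of 4 scan days (0.83).

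Of 8 measured milk protein genes, 5 were above background on at least 4 of 5 arrays of both groups and Csn3, Lpo and Olah on fewer. Of the 8, 6 had lower values in BPA250+I3C. The list's median stood at -0.81 relative to that of all genes, and at -0.31 without slide 3. Csn3, kappa casein, had all 5 I3C animals below all 5 others (-1.69 ± 0.55), but was above background on only 1 and 2 arrays. The casein gene Csn1s1 differed by -1.10 ± 0.85. Csn2, beta casein, stood at -0.30, -0.64, -0.19, -1.50 and -1.71 against -0.74, -1.90, 0.56, -1.75 and -1.64. The groups overlapped fully at 0.23 ± 0.49. Glycam1, which both milk and lymph node vessels contain, ranged from -1.26 to 3.93 in BPA250+I3C and from -3.44 to 1.83 in BPA250. T cell markers had all 6 measured members above the median of all genes, by 0.48 at the median. The difference was 2.74, 0.03, -0.54 and 1.22 on the 4 scan days, and none of the 6 had an unadjusted p under 0.05. The mean of the 2 measured B cell markers ran from -4.02 to 0.98 in BPA250+I3C and from -3.87 to 0.45 in BPA250. The part of the lymph node in these values was not tested.

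**Figure D4:**
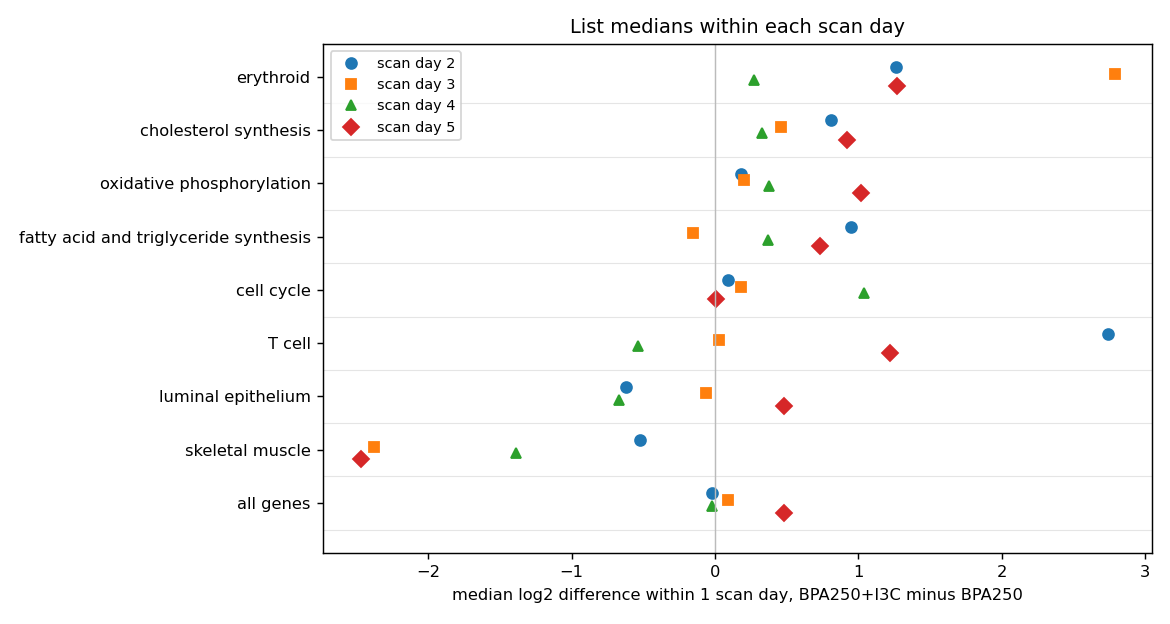
Median log2 difference BPA250+I3C minus BPA250 (horizontal axis) within each of the 4 scan days that held both groups, for 8 lists and for all genes, with a point for each day. The erythroid difference is 1.26, 2.79, 0.27 and 1.27, above that of all genes on each day, and the muscle difference is below 0 on each.

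The same diet was also added to the lower BPA dose in other animals, which allowed the I3C differences at both doses to be compared. No gene passed in the test of the difference between doses (0% of 16157, smallest adjusted p = 0.989), and 511 genes (3.16%) had an unadjusted p under 0.05. Erythroid genes stood at a median of 0.42 with I3C at BPA25, against 1.46 at BPA250, and muscle genes at -3.22 against -1.41. At BPA25 the muscle genes Tnni1 and Myoz2 passed (2 genes, 0.0124% of all, adjusted p = 0.0335 for both, limma), with log2 fold changes of -4.62 and -3.51. The median difference between doses was 1.31 for muscle, 1.17 for T cell and 1.05 for cell cycle genes. All 30 measured cell cycle genes stood below 0 at BPA25 (median -0.79), as did 34.3% of all genes. At BPA250 24 of the 30 stood above 0 (median 0.38) against 69.8% of all genes, but 14 of 30 (median -0.02) when each array was scaled to the probes above background on every array. For 13 of the 30 the difference between doses had an unadjusted p under 0.05, and for 0 an adjusted one. Ccne1, cyclin E1 of the start of DNA replication, stood at 1.06 ± 0.49 at BPA250 and -0.24 ± 0.49 at BPA25, and Ube2c, which marks mitotic proteins for breakdown, at 0.75 ± 0.40 and -0.85 ± 0.40. At BPA250 alone 19 of 30 lay above the median of all genes, by 0.14 at the list's median.

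Single genes with large differences between doses included Pmepa1, at 1.64 ± 0.45 with BPA250 and -0.98 ± 0.45 with BPA25. Fabp3, a fatty acid carrier of muscle and brown fat, stood at 1.82, 0.08, 0.31, 0.70 and 0.96 in BPA250+I3C and at -1.52, 0.52, -0.70, -0.90 and -1.76 in BPA250. At the lower dose the order was turned, with -1.22, 0.05, -1.39, 0.16 and -1.08 in BPA25+I3C and 1.80, 0.22, 0.71, 0.95 and 0.17 in BPA25. The I3C difference was thus 1.64 ± 0.52 at one dose and -1.47 ± 0.52 at the other. Cyp2e1, which oxidises ethanol and other small molecules, went the opposite way, at -2.33 ± 0.80 with BPA250 and 2.18 ± 0.80 with BPA25, and was above background on 1 of 5 BPA250+I3C arrays. Fdps stood at 1.38 ± 0.42 and -0.60 ± 0.42, C4bpa at -2.08 ± 0.69 and 1.82 ± 0.69, and Cdc25b at 1.50 ± 0.42 and -0.51 ± 0.42. Tnni1, a slow muscle troponin, stood at -0.56 ± 0.83 and -4.62 ± 0.83, and turned to 0.10 at BPA250 without slide 3. Cdk12, a transcription elongation kinase, stood at -0.35 ± 0.35 and 1.30 ± 0.33, with 1 BPA250 value missing.

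**Figure D5:**
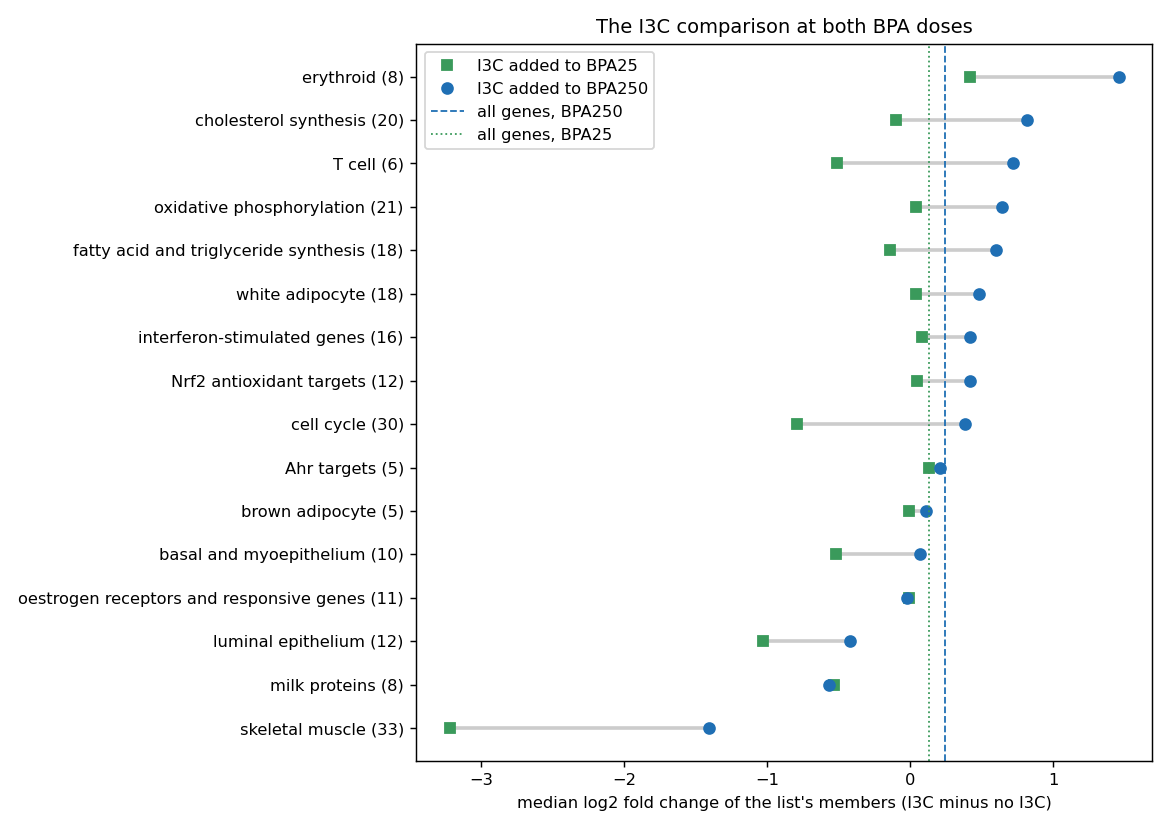
Median log2 fold change for I3C added to BPA25 and to BPA250 (horizontal axis) of each described gene list, with the medians of all genes. Cell cycle genes lie at -0.79 and 0.38, erythroid genes at 0.42 and 1.46 and muscle genes at -3.22 and -1.41.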

How the data were processed

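Each of the 35 samples was hybridised to its own 1-colour (Cy3) Agilent 4x44K rat array with 150 ng of RNA, per the labels' protocols. The authors deposited the spot output of Agilent Feature Extraction 9.5.3.1. Per the file headers, the processed signal is an intensity with background subtracted and detrended, and mean and local background signals are uncorrected intensities. Further deposited columns are 0 or 1 flags (other). The authors' table of normalised values is on a log2 scale, and its normalization is not given in the sources used here.

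Processed signals were log2-transformed, and the 75th percentile of an array's probe spots was subtracted. Spots with outlier flags were set to missing and repeated spots averaged. Of 41012 probes 21252 were named through RefSeq (GRCr8), the other 19760 keeping the array's name. Probes well above background on at least 4 of 5 arrays of at least 1 of 7 groups were kept, and the brightest stood for each gene (16157 genes, 9400 named through RefSeq).

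A model of group means without a block was fitted with limma 3.58.1 (R 4.3.3, package data.table in version 1.17.8) to the 35 arrays together. The contrasts were BPA250+I3C minus BPA250, and this minus BPA25+I3C minus BPA25. The threshold was an adjusted p of 0.05 (Benjamini-Hochberg, all 16157 genes), and the fit was tested on simulated data. Of 100 genes simulated with a log2 effect of 1 it recovered 11%, and of 100 with an effect of 3 it recovered 97%. Missing values stayed missing, and list means left them out. The group mean took their place for array weights, random blocks, the variance trend, correlations between arrays, variance shares and the comparison of equally numbered arrays.

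Named genes were up to 12 in each direction by smallest unadjusted p with a log2 fold change past 0.58 in size and signal above background on at least 3 of 5 arrays of a group, up to 5 in each direction for the difference between doses, receptors and Ahr targets looked up by name, and up to 4 members of each described list. Some members counted in the lists are not reported here by name. Aldh3a1, Ahsp, Klf1, Tfrc, Hbb-b1 and Cidea were added to complete short lists after their values were seen. The comparison, the lists and the tests were chosen with earlier results of these data known, and the 16 described lists of 32 were picked after their values were seen. Array scaling, background correction, probe filters, slide, scan day and replicate blocks, variance models and left-out arrays were varied. Leaving out slides 3, 4 and 5 was chosen after seeing the data.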

Additional observations from a re-analysis of the deposited data

Results flagged for a closer look

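In 11 of the 172 gene and group pairs and 32 list and group pairs examined, 1 of the 5 arrays lay apart from the other 4 by more than Dixon's limit. Chance sets about 1 in 20 groups apart in this way. In BPA250, replicate 2, the array of slide 3, was low for 5 of them. It stood at 4.31 for the lipase Lpl (the others at 6.15 to 6.90), at 0.26 for Nfe2l2, the gene of Nrf2 (2.13 to 2.85), and at 1.67 for Prdx1 (3.55 to 4.30). It stood at -0.38 for Tiparp (0.92 to 1.33) and at -0.15 for the mean of the Ahr targets (0.35 to 0.43).

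Replicate 4 of BPA250 was low for 3 skeletal muscle genes, at -1.87 for Acta1, skeletal actin (1.76 to 2.88), -0.57 for Ckm (3.10 to 4.48) and -2.80 for Myoz1, a Z-disc protein (1.35 to 2.99). In BPA250+I3C, replicate 2 stood at -4.30 for Hpd (-2.44 to -1.84). Replicate 3 stood at 4.88 for Uqcrfs1, the Rieske subunit of complex III (5.64 to 5.77). Replicate 4 stood at 0.44 for the mean of the cell cycle genes (-0.16 to -0.07), above the other 4 animals.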

How the results depend on the processing

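For I3C added to BPA250 the count of called genes was 0 in all alternatives but slide as a random block, which called 2 (Alas2 and Npy). The difference between doses called 0 genes except with slide as a fixed block (1), slide as a random block (8), without slides 3, 4 and 5 (4, among them Fabp3 and Tnni1) and with array weights (443, of which 221 were higher and 222 lower). Leaving out any single array called 0 genes in both comparisons. At an unadjusted p under 0.05 the first comparison held 699 genes, 329 without BPA250 replicate 2, 1200 without BPA250 replicate 4 and 360 without BPA250+I3C replicate 5. The replicate block called 0 genes in both comparisons (2480 and 1040 at an unadjusted p under 0.05). The deviations of equally numbered arrays correlated at -0.21 to 0.46, and 3 of 5 BPA250+I3C arrays correlated best with the BPA250 array of their number, so the numbers were not taken to pair the animals.

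The sign turned for 9 of 87 named genes. With the percentile taken over probes above background on all arrays this gave Tiparp -0.06, Csn2 -0.17, Ugt1a6 -0.19 and Nfe2l2 -0.17. Median scaling gave Cyp1b1 0.19 and Dio2 0.16, and Ehf stood at 0.00 with normexp and at 0.01 in the authors' table. Slide as a fixed block gave Cyp1b1 0.11, Nfe2l2 -0.03 and Dio2 0.03, slide as a random block Cyp1b1 0.02 and scan day Cyp1b1 0.10. Without slide 3, Cyp1b1 stood at 0.11, Nfe2l2 at -0.23 and Tnni1 at 0.10. Without slides 3, 4 and 5 they stood at 0.17, -0.30 and 0.53, and Cldn7 at 0.05. Array weights gave 0.14, -0.28 and 0.39. With 1 array left out at a time, Cyp1b1 ran from -0.36 to 0.11, Nfe2l2 from -0.23 to 0.42 and Tnni1 from -1.03 to 0.10. The cause was not tested.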
